A study of Canis lupus familiaris with 10 samples.

Results

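Tissue factor, its inhibitors and the plasminogen activators were followed across cultured hemangiosarcoma cells from 10 dogs. The genes were chosen by name. They comprised the procoagulant gene F3, the anticoagulant genes TFPI, TFPI2, THBD and PROCR, the plasminogen activator genes PLAU and PLAT, the receptor gene PLAUR and the inhibitor gene SERPINE2. Of these 9 genes, 8 had at least 1 probe set on the Canine_2 array, with 14 probe sets in all, out of 15115 genes that the array's annotation names by a single symbol. No probe set was named for PLAUR alone, and probe sets with several gene symbols were not used, so PLAUR was not analysed here.

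Hemangiosarcoma is a malignant tumor of dogs whose cells are classed with the blood vessel lining, and bleeding and disordered clotting are well known in affected animals. Clotting starts when blood meets tissue factor, the membrane receptor for factor VII. Endothelial cells normally hold it in check with tissue factor pathway inhibitor and with thrombomodulin and the endothelial protein C receptor, which together activate protein C. Clots are then dissolved by plasmin, which is cut from plasminogen by the urokinase and tissue-type activators and is restrained by serpins.

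All cultures came from hemangiosarcomas of pet dogs, were frozen at the earliest available passages and received no treatment. Golden Retrievers numbered 6, with 3 males (CHAD-G4, CHAD-G8 and Tucker) and 3 females (CHAD-G6, Frog and Journey). The non-Golden Retriever group held 3 males, CHAD-P9 (a Portuguese Water Dog), Dal-4 (a Dalmatian) and Joey (a Rottweiler). DD-1 was a male F1 dog of Golden Retriever and Great Pyrenees parents and was left out of the breed test. Sexes are those the study records, Frog and Journey were distantly related, and ages, which the study records and the labels do not, were not used here. Each dog gave 1 array, so every SD is the spread between dogs, with any error of culture and array inside it. The limma p-values set a difference between groups against that spread, partly shared over all tested probe sets. Permutation p-values come from rearranging the dogs. There was no non-malignant culture among the arrays, so no level was set against a normal cell. Cultures can hold several cell types, and fewer cells of a type cannot be told apart from less RNA per cell.

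Values are log2 signals, so a difference of 1 is a doubling. A probe set was taken as above background where it exceeded the 40th percentile of its array, which lay between 5.02 and 5.16, and was tested if it did so on at least 3 of the purebred arrays. Of the 14 probe sets, 12 were tested, from 7 genes. Different probe sets bind their targets unequally, so signals are compared between dogs and never between genes. Where a gene had several probe sets they are numbered from the highest mean signal down.

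Across the array the extreme signals fell most often in Dal-4, and next most often in CHAD-G4 by a small margin. Dal-4 held the lowest signal for 17% of the 11111 tested genes and the highest for 20.7%, and CHAD-G4 held the lowest for 15% and the highest for 13.7%, while the other 8 dogs held the lowest for 3.9% to 13.9% and the highest for 3.85% to 12.2%. Dal-4 also went against its recorded sex at a probe set of EIF2S3, which is carried by the X and the Y. Its signal was 2.95, the 3 females had 3.08 to 3.33, and the remaining 6 males had 10.15 to 10.60. Breed differences of the chosen genes and their balances are therefore also given without these dogs where they moved the value by more than 1.5 times. For genes of the other lists such differences are not given. Endothelial markers were mixed. PECAM1 (4.03 to 4.72), TEK, ESAM and EMCN were at background on every array and VWF on 8 of 10. KDR (6.51 to 8.25), ROBO4 (6.78 to 7.37), CLDN5 (5.60 to 6.30), TIE1 (5.06 to 5.72) and CDH5 (5.15 to 5.41) were above it on all 10 arrays and ERG (4.80 to 6.93) on 9. These are values of 1 probe set a gene, and those of TIE1 and CDH5 lay close to the threshold. Only 1 of 4 probe sets of CDH5, and 1 of 2 each of TIE1, CLDN5 and the macrophage marker CSF1R, exceeded it on 3 or more arrays. The signals of the 11 endothelial markers with a probe set summed to 57.80 to 60.37 in Golden Retrievers and 56.01 to 61.30 in non-Golden Retrievers. Those of 8 fibroblast markers summed to 89.04 to 92.94 and 83.22 to 91.77. The sum of 83.22 was that of Dal-4, where LUM had 4.40 against 12.47 to 14.08 in the other dogs. Signals of 6 smooth muscle markers summed to 43.43 to 61.72 and 49.31 to 58.49. The sum of 43.43 was that of CHAD-G4, where ACTA2 had 6.39 against 9.73 to 14.13 elsewhere. Signals of 8 leukocyte and macrophage markers summed to 39.20 to 42.69 and 38.81 to 40.76. PTPRC, ITGAM, CD163 and LYZ were at background throughout. CD14 (5.98 to 7.98), CD68 (5.57 to 6.98) and CSF1R (5.23 to 5.48) were above it on all 10 arrays and AIF1 on 4.

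F3 had the largest breed difference of the 7 tested genes described here. F3 (gene 490153) encodes tissue factor, the trigger of clotting. Its probe set 1 had a lowest signal of 10.47, a median of 12.12 and a highest signal of 13.39 among the 6 Golden Retrievers, and it had 8.60 in CHAD-P9, 9.27 in Dal-4, 10.97 in Joey and 10.48 in the F1 dog. The 5 Golden Retrievers other than CHAD-G6 lay above all non-Golden Retrievers, and CHAD-G6 lay between Dal-4 and Joey, so the groups overlapped. The Golden Retriever mean was 12.07 ± 1.10 (SD, n = 6) and the non-Golden Retriever mean 9.61 ± 1.22 (SD, n = 3), which differ by 2.46 log2 units (SE 0.702, 95% interval 0.88 to 4.03, adjusted p = 0.772 by limma). This was 5.49-fold more signal, with an interval of 1.84 to 16.4-fold. Taken alone, 3 of the 84 splits of the dogs into 6 and 3 gave a difference as large (exact permutation test, two-sided, p = 0.0357).

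Probe set 2 of F3 followed the same order of groups at a lower signal. It had a lowest signal of 8.05, a median of 9.69 and a highest signal of 11.82 in Golden Retrievers, and 6.52 in CHAD-P9, 7.15 in Dal-4, 8.24 in Joey and 7.94 in the F1 dog. Its log2 difference was 2.58 (SE 0.838, 95% interval 0.70 to 4.46, adjusted p = 0.772 by limma), and its correlation with probe set 1 over the 10 arrays was 0.974. The difference of probe set 1 was 1.95 without CHAD-P9, 3.14 without Joey and 2.29 without Dal-4, and that of probe set 2 lay between 2.19 and 3.05 when any 1 purebred dog was left out. Because the non-Golden Retrievers were all male, males were also compared alone, 3 against 3, and the difference of probe set 1 was 2.51 (SE 0.771, adjusted p = 0.821 by limma). This comparison holds Dal-4, whose recorded sex its EIF2S3 signal went against, so it is not known to be free of sex.

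**Figure D1:**
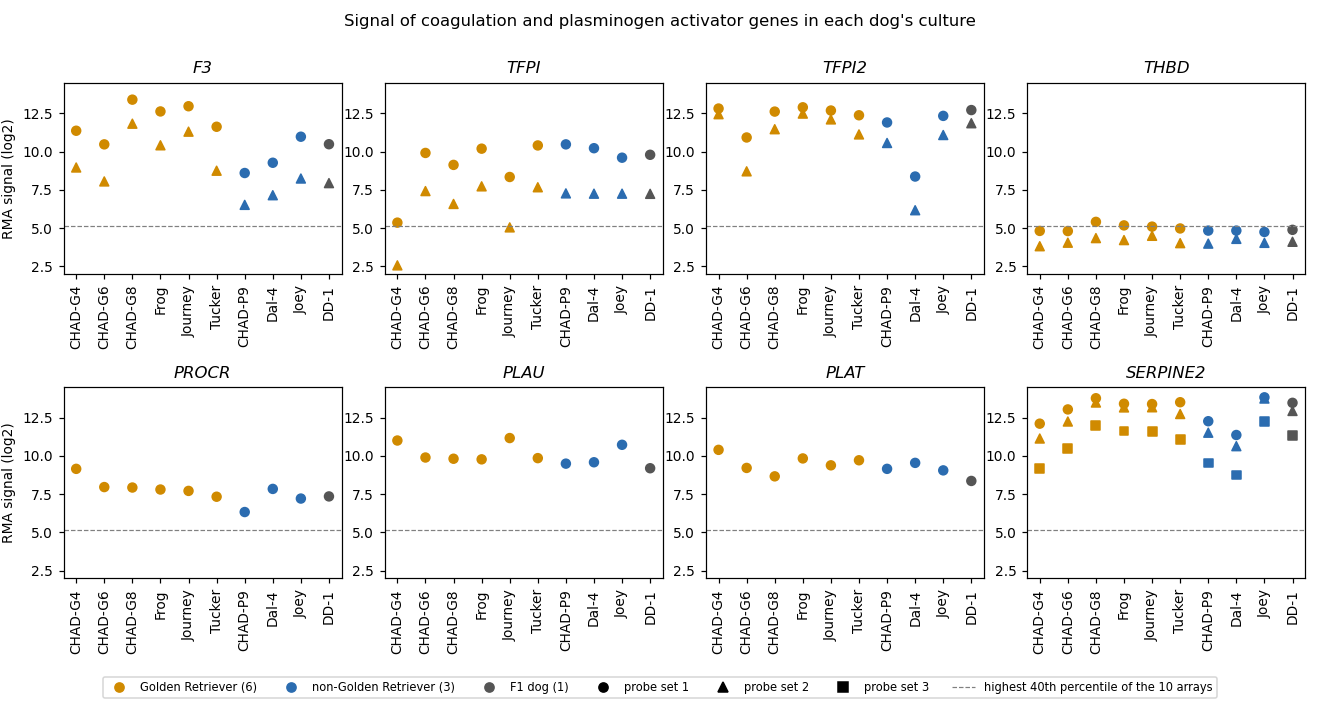
Log2 RMA signal (y axis) of each probe set of 8 genes in each dog (x axis), with Golden Retrievers in orange, non-Golden Retrievers in blue, the F1 dog in gray, a marker shape for each probe set and a dashed line at the highest background threshold of the 10 arrays. F3 is lower in CHAD-P9 and Dal-4 than in all Golden Retrievers, TFPI is lowest in CHAD-G4, TFPI2 is lowest in Dal-4, and THBD lies near or under the dashed line in every dog.

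F3 ranged over 4.79 log2 units between CHAD-G8 and CHAD-P9, a 27.7-fold span, and 98.6% of the tested probe sets varied less between dogs. The order of the dogs from high to low was CHAD-G8, Journey, Frog, Tucker, CHAD-G4, Joey, DD-1, CHAD-G6, Dal-4 and CHAD-P9. Neighbors in this order differed by 0.01 to 1.00, less than the SD of 1.10 between Golden Retrievers, except for the gap of 1.20 between CHAD-G6 and Dal-4. Both probe sets exceeded the background threshold on all 10 arrays.

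TFPI (gene 403921), the secreted and membrane-bound inhibitor of the tissue factor complex, was low in 1 dog and otherwise varied less. Probe set 1 had a lowest signal of 5.36 in CHAD-G4, a median of 9.52 and a highest of 10.40 among Golden Retrievers, and 10.47 in CHAD-P9, 10.22 in Dal-4, 9.60 in Joey and 9.79 in the F1 dog. CHAD-G4 lay 2.97 log2 units under the next dog, Journey, and the other 5 Golden Retrievers ran from 8.34 to 10.40, across the range of the non-Golden Retrievers. Probe set 2 had the same low dog, at 2.57 in CHAD-G4 against 5.05 to 7.73 elsewhere, and both CHAD-G4 and Journey (5.05) were at background there.

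The breed difference of TFPI did not pass the test. Probe set 1 averaged 8.89 ± 1.89 (SD, n = 6) for Golden Retrievers and 10.10 ± 0.444 (SD, n = 3) for the rest, and the difference was -1.21 log2 units (SE 0.988, 95% interval -3.43 to 1.01, adjusted p = 0.844 by limma). It was -0.50 without CHAD-G4. For probe set 2 the difference was -1.09 (SE 1.05) with all dogs and -0.37 without CHAD-G4.

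TFPI2 (gene 475230) encodes a related matrix-bound inhibitor that acts on plasmin and several other proteases. Among Golden Retrievers probe set 1 had a lowest signal of 10.92, a median of 12.65 and a highest of 12.89, and it had 11.90 in CHAD-P9, 8.37 in Dal-4, 12.33 in Joey and 12.71 in the F1 dog. Dal-4 lay 2.55 log2 units under the next dog, CHAD-G6, and the other 8 dogs ran from 11.90 to 12.89. Probe set 2 gave 6.17 in Dal-4, 8.71 in CHAD-G6 and 10.56 to 12.48 in the other dogs, a span of 79.1-fold.

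The log2 difference of TFPI2 between breeds was 1.51 (SE 0.810, 95% interval -0.30 to 3.33, adjusted p = 0.784 by limma) for probe set 1 and 2.11 (SE 1.15, adjusted p = 0.784) for probe set 2. Both values rested on Dal-4. Without this dog they were 0.27 and 0.56.

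Of the cofactors of protein C activation, THBD was at background in most dogs and PROCR was measured in all of them. THBD (gene 474355) encodes thrombomodulin, the endothelial receptor that turns thrombin toward protein C. Its probe set 1 ran from 4.81 to 5.41 in Golden Retrievers and was 4.84 in CHAD-P9, 4.84 in Dal-4, 4.75 in Joey and 4.89 in the F1 dog. It exceeded the background threshold on 2 of the 10 arrays, and probe set 2 did so on 0, with signals of 3.82 to 4.50. Neither was tested, and no fold is given for a gene at background in both groups.

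PROCR (gene 485848) encodes the endothelial protein C receptor, which presents protein C to thrombomodulin. Golden Retrievers had a lowest signal of 7.33, a median of 7.87 and a highest of 9.15 in CHAD-G4. The others had 6.33 in CHAD-P9, 7.84 in Dal-4 and 7.21 in Joey, and the F1 dog had 7.35. CHAD-P9 was the lowest of the 10 and CHAD-G4 the highest, each farther from its neighbor than the SD within its group, and the remaining dogs overlapped. The log2 difference was 0.85 (SE 0.414, 95% interval -0.08 to 1.79, adjusted p = 0.776 by limma), and it was 0.46 without CHAD-P9.

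The plasminogen activators had the narrowest ranges of the 7 tested genes, 1.97 log2 units for PLAU and 2.04 for PLAT. PLAU (gene 403426) encodes urokinase, the activator used at cell surfaces in migration and invasion. It had a lowest signal of 9.77, a median of 9.87 and a highest of 11.16 in Golden Retrievers, and 9.49 in CHAD-P9, 9.58 in Dal-4, 10.72 in Joey and 9.19 in the F1 dog. Journey, CHAD-G4 and Joey lay apart from the rest at 10.72 to 11.16, and they came from both groups. The log2 difference was 0.32 (SE 0.415, 95% interval -0.62 to 1.25, adjusted p = 0.915 by limma). It was 0.10 without CHAD-P9, 0.13 without Journey, 0.14 without Dal-4, 0.16 without CHAD-G4 and 0.71 without Joey.

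PLAT (gene 482840) encodes tissue-type plasminogen activator, the activator that vessel walls release into blood. Its signal had a lowest value of 8.66, a median of 9.54 and a highest value of 10.39 in Golden Retrievers, against 9.15 in CHAD-P9, 9.54 in Dal-4, 9.05 in Joey and 8.36 in the F1 dog. All 3 non-Golden Retrievers fell inside the range of the Golden Retrievers. The log2 difference was 0.28 (SE 0.333, 95% interval -0.46 to 1.03, adjusted p = 0.900 by limma), and it was 0.11 without CHAD-G4, 0.18 without Joey, 0.43 without Dal-4 and 0.46 without CHAD-G8.

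SERPINE2 (gene 608930) encodes protease nexin-1, which inhibits thrombin, urokinase and plasmin at the cell surface. Probe set 1 had a lowest signal of 12.10, a median of 13.39 and a highest of 13.76 in Golden Retrievers, and 12.26 in CHAD-P9, 11.36 in Dal-4, 13.82 in Joey and 13.46 in the F1 dog. In 7 dogs the signal was 13.03 or more, and the 3 below that, CHAD-P9, CHAD-G4 and Dal-4, came from both breed groups. Its log2 difference was 0.71 (SE 0.516, 95% interval -0.45 to 1.87, adjusted p = 0.822 by limma), and those of probe sets 2 and 3 were 0.70 (SE 0.693) and 0.79 (SE 0.804). Without Dal-4 the values were 0.15, 0.03 and 0.08, and without Joey they were 1.38, 1.59 and 1.83. Probe set 3 was 0.47 without CHAD-P9.

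**Figure D2:**
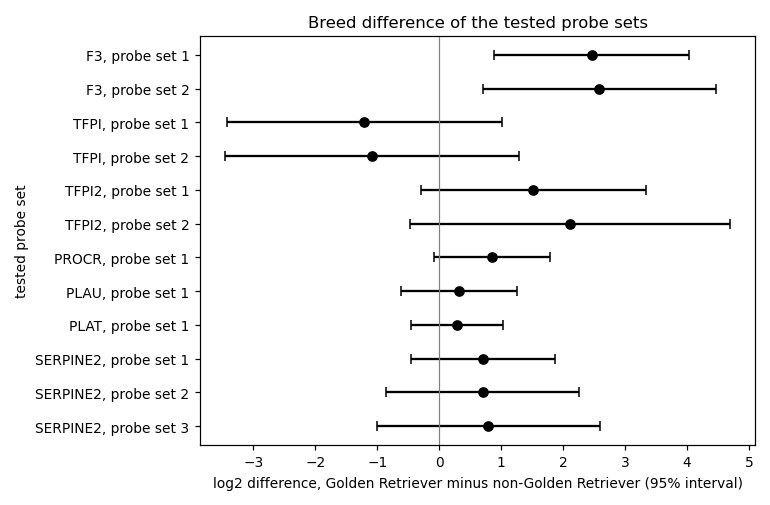
Breed difference in log2 units, positive where Golden Retrievers were higher (x axis), of the 12 tested probe sets (y axis), each as a point with its 95% interval from limma (6 dogs against 3). The intervals of both F3 probe sets, 0.88 to 4.03 and 0.70 to 4.46, lie right of 0, and the other 10 cross 0.

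Over the 12 tested probe sets, 0 passed an adjusted p under 0.05 by limma, where 0.00373% of the 26787 tested did. At an unadjusted p under 0.05 there were 2, both of F3 and both higher in Golden Retrievers, against 6.33% of all tested probe sets in either direction, 1.81% higher and 4.52% lower. The groups overlapped at all 12, so 0 separated them, where 2.46% of all tested probe sets did. Signals were higher in Golden Retrievers for 10 of the 12 and lower for 2, against 47.1% higher among all tested probe sets, with a median difference of 0.75 against -0.02. These 12 come from 7 genes, and probe sets of 1 gene share their transcripts, so they are not 12 separate measurements.

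Those counts moved with single dogs. Leaving out Joey raised the number at an unadjusted p under 0.05 to 7, the added ones being TFPI2 and SERPINE2, where 5.86% of all tested probe sets had such a p. Leaving out CHAD-G6 raised it to 4 (4.80% of all), and leaving out CHAD-P9 lowered it to 1 (11.7% of all). Probe sets whose groups did not overlap numbered 4 without CHAD-G6, where 2.84% of all tested probe sets did not overlap, 3 without Joey (6.33% of all), and 4 among males alone, where 11.1% of all did not overlap. Without Dal-4 and CHAD-G4 together, a comparison chosen after seeing the data, F3 differed by 2.43 and 2.69, TFPI2 by 0.18 and 0.35, and TFPI by -0.44 and -0.37.

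Set beside each other within a dog, the genes that were high or low differed from dog to dog. Each gene was centered on its mean over the 10 arrays, and the deviations are described without a test. CHAD-G4 combined the lowest TFPI (-3.98) with the highest PROCR (1.49) and PLAT (1.07) and a low SERPINE2 (-0.91). Dal-4 combined low F3 (-1.90), the lowest TFPI2 (-3.59) and the lowest SERPINE2 (-1.64). CHAD-P9 had the lowest F3 (-2.58) and PROCR (-1.33) and the highest TFPI (1.12), and the F1 dog had the lowest PLAU (-0.86) and PLAT (-0.97).

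**Figure D3:**
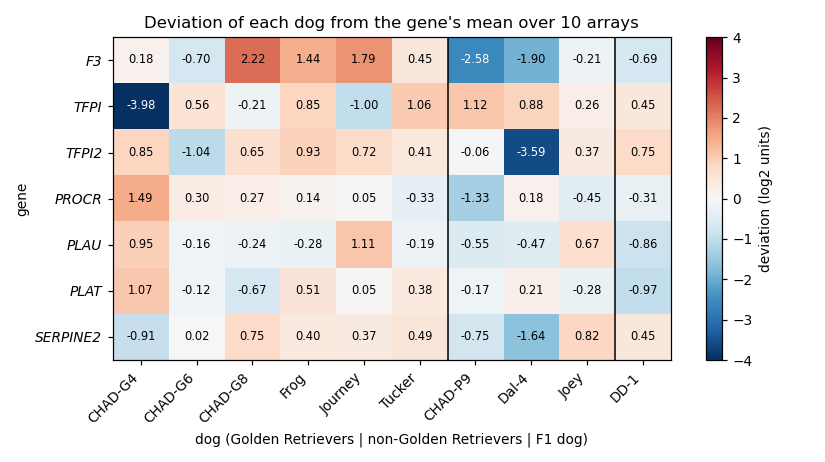
Deviation of each dog (x axis, Golden Retrievers, then non-Golden Retrievers, then the F1 dog) from the mean of the 10 arrays for 7 genes (y axis), in log2 units and as a color scale from blue (below) to red (above). The deepest cells are TFPI in CHAD-G4 (-3.98), TFPI2 in Dal-4 (-3.59) and F3 in CHAD-P9 (-2.58).

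As a balance of clotting and anticoagulant genes, the deviation of F3 minus the mean deviation of TFPI, TFPI2 and PROCR was formed for each dog. THBD was not included because its signal was at background. Golden Retrievers had -0.64 in CHAD-G6, 0.07 in Tucker, 0.73 in CHAD-G4, 0.80 in Frog, 1.86 in Journey and 1.98 in CHAD-G8. Non-Golden Retrievers had -2.49 in CHAD-P9, -1.06 in Dal-4 and -0.27 in Joey, and the F1 dog had -0.98. Again 5 of 6 Golden Retrievers lay above all non-Golden Retrievers, with CHAD-G6 under Joey. The mean was 0.80 ± 1.01 (SD, n = 6) and -1.27 ± 1.12 (SD, n = 3), a difference of 2.07 log2 units that was 2.18 without Dal-4, 1.46 without CHAD-P9 and 2.63 with TFPI2 left out of the mean. F3 enters this balance whole, so it is not separate from the F3 values above.

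The fibrinolytic balance, the mean deviation of PLAU and PLAT minus that of SERPINE2, did not follow the breed labels. It was highest in CHAD-G4 (1.92) and Dal-4 (1.52), 1 dog of each group, and lowest in the F1 dog (-1.37) and CHAD-G8 (-1.20). The remaining dogs lay between -0.62 in Joey and 0.39 in CHAD-P9. Golden Retrievers averaged 0.01 ± 1.04 (SD, n = 6) and non-Golden Retrievers 0.43 ± 1.07 (SD, n = 3), a difference of -0.41 that turned to 0.13 without Dal-4 and was -0.17 without CHAD-G8, -0.79 without CHAD-G4 and -0.94 without Joey.

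**Figure D4:**
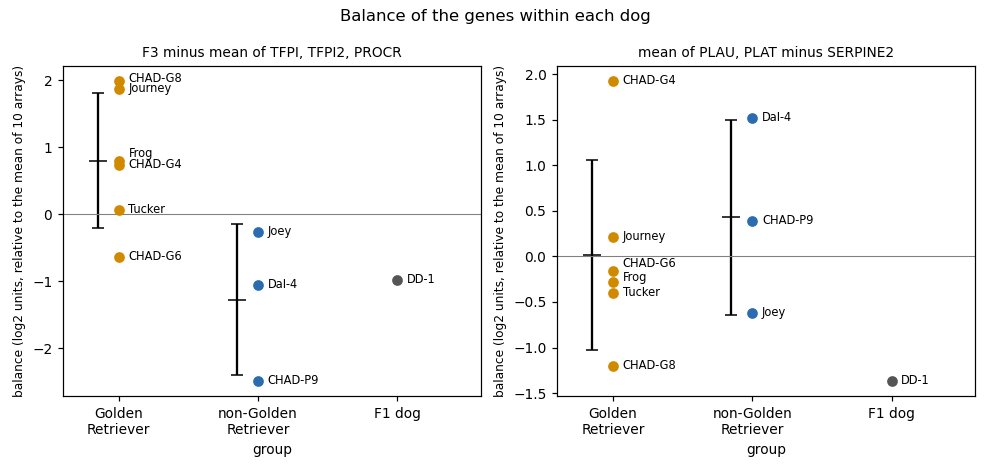
Balance of clotting and anticoagulant genes (left) and of plasminogen activators and their inhibitor (right) in log2 units relative to the 10-array mean (y axis), for each dog by group (x axis), with the group mean and SD as bars beside the points. On the left 5 of 6 Golden Retrievers lie above the non-Golden Retrievers, and on the right CHAD-G4 (1.92) and Dal-4 (1.52) are highest.

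Across the 10 dogs, 21 pairs of the 7 genes were compared, and 0 pairs were correlated at an adjusted p under 0.05. At an unadjusted p under 0.05 there were 4 by Pearson's r. TFPI ran against PROCR, with r = -0.77 (permutation test, p = 0.0143, adjusted p = 0.150) and rho = -0.50 (permutation test, p = 0.145, adjusted p = 0.464). This rested on the dogs with least TFPI, since r was -0.44 without CHAD-G4 and Journey. TFPI ran against PLAU, with r = -0.71 (permutation test, p = 0.0124, adjusted p = 0.150) and rho = -0.65 (permutation test, p = 0.0492, adjusted p = 0.464), and r was -0.31 without the same dogs.

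TFPI2 rose with SERPINE2, with r = 0.69 (permutation test, p = 0.0288, adjusted p = 0.202) and rho = 0.22 (permutation test, p = 0.533, adjusted p = 0.746), and r was 0.20 without CHAD-G6 and Dal-4. F3 and SERPINE2 had r = 0.66 (permutation test, p = 0.0415, adjusted p = 0.218) and rho = 0.53 (permutation test, p = 0.124, adjusted p = 0.464), and r was 0.55 without CHAD-G8 and CHAD-P9. F3 and TFPI2 had r = 0.59 (permutation test, p = 0.0600, adjusted p = 0.252) and rho = 0.64 (permutation test, p = 0.0549, adjusted p = 0.464), with r = 0.76 without CHAD-G8 and CHAD-P9 and 0.71 within the 6 Golden Retrievers.

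For each gene the named genes with the closest pattern over the 10 arrays were searched among 19384 tested probe sets, as a description without a test, since a search of this size returns high values of r with 10 arrays. The closest to F3 were LYPD3 (r = 0.872), ADAMTS2 (0.862) and ASB11 (0.845). LYPD3 spanned only 5.01 to 5.31, close to background, while ADAMTS2, an enzyme that trims procollagen, spanned 4.29 to 6.36. The closest to SERPINE2 were MYO16 (0.949), FAP (0.947) and CXCL16 (0.945), and FAP, a surface protease of activated fibroblasts, spanned 6.53 to 11.47. TFPI2 was closest to ATP6V0B (0.958), MARCHF6 (0.949) and EPSTI1 (0.926), and PROCR to SLC35E3 (0.947), ACD (0.922) and TEX261 (0.916).

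TFPI was closest to SEPTIN2 (0.948), OSBPL2 (0.945) and FIGNL1 (0.943), of which SEPTIN2, a cytoskeletal GTPase, spanned 11.37 to 12.63. PLAU was closest to TMEM141 (0.920), BARX1 (0.904) and DPAGT1 (0.884). PLAT was closest to ACSL4 (0.922), NUDT7 (0.905) and CLPP (0.902), and ACSL4, which activates long-chain fatty acids, spanned 8.52 to 10.38.

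The other genes of coagulation and fibrinolysis were taken from 5 lists of 48 genes, of which 40 had a probe set and 23 were tested. Those with none named for them alone included F2, F5, PROZ, SERPIND1, SERPINA10, HRG and A2M. By limma 0 of the 23 genes passed an adjusted p under 0.05, against 0% of all 11111 genes, each taken by its tested probe set of highest mean. At an unadjusted p under 0.05 there were 2, against 6.16% of all genes, 1.68% higher and 4.47% lower. One was VKORC1, higher in Golden Retrievers. The other was SERPINB2, which passed the filter only through Golden Retrievers, so its call is not read as a breed difference. The groups overlapped at all 23 genes, where 2.49% of all genes separated them, and 17 were higher and 6 lower in Golden Retrievers, against 46.6% higher among all genes.

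Most clotting factor genes were at background in these cultures. Of 13 with a probe set, only F7 and F12 were tested. F7, which binds tissue factor, spanned 5.24 to 5.71 and F12, which starts the contact pathway, spanned 5.42 to 6.23. The fibrinogen chain genes FGA, FGB and FGG had highest signals of 4.92, 4.26 and 3.22. VWF, the endothelial and platelet factor that tethers platelets, had 6.08 in CHAD-G4 and 4.75 to 5.14 elsewhere and was not tested.

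Among the receptors for thrombin and related proteases, F2R, the main thrombin receptor, was well expressed in all dogs, from 8.53 in Dal-4 to 10.92 in CHAD-G6. F2RL2, its relative that also binds thrombin, had 8.13 in CHAD-G4 and 4.69 to 5.58 in the others. F2RL1, which trypsin-like proteases activate, had its highest signals in Frog (6.57) and Joey (6.26) and was not tested. The 2 tested genes, F2R and F2RL2, had a median difference of 0.49 between breeds, against -0.02 for all genes.

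All 6 tested genes of the list of other anticoagulants, which also holds GAS6 as a relative of protein S, were higher in Golden Retrievers, against 46.6% of all genes. None had an unadjusted p under 0.05, and the median difference was 0.32. Dal-4 had the lowest signal of the 10 dogs for PROS1, ANXA5 (11.89), SERPINA5 (5.67) and HS3ST1, which lowers the non-Golden Retriever means. The differences of these genes without Dal-4 are not given here, so the count of 6 may rest on this dog. The differences of PROC (0.10, SE 0.154), SERPINA5 (0.06, SE 0.137) and GAS6 (0.27, SE 0.823) were smaller than their SEs. Those of ANXA5 (0.37, SE 0.240) and HS3ST1 (0.64, SE 0.363) were larger than theirs. PROS1 encodes protein S, the cofactor of activated protein C and of TFPI, and had the widest range of the 23 genes. It had 8.30 in CHAD-G4, 9.45 in CHAD-G6, 9.87 in CHAD-G8, 10.08 in Frog, 10.02 in Journey and 11.35 in Tucker, against 7.55 in CHAD-P9, 4.59 in Dal-4, 10.64 in Joey and 9.34 in the F1 dog. The log2 difference was 2.25 (SE 1.12, adjusted p = 0.776 by limma), and Dal-4 was at background for this probe set. Another PROS1 probe set ran from 5.04 in Dal-4 to 10.71 in Tucker, with a difference of 1.28 (SE 1.09). The remaining one tested ranged from 6.04 to 6.56, with a difference of 0.11 (SE 0.164), so the probe sets of the gene disagree. GAS6, a relative of protein S that signals through receptor kinases, was high in CHAD-G6 (8.23), CHAD-G4 (8.09) and Dal-4 (7.47) and 5.16 to 5.92 elsewhere. HS3ST1, which makes the heparan sulfate that antithrombin binds, was lowest in Dal-4 (4.93) and highest in Frog (7.05).

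In the rest of the plasminogen system 4 genes were higher and 3 lower in Golden Retrievers, with a median difference of 0.14. SERPINB2 encodes plasminogen activator inhibitor 2. Its signals were 7.09 in CHAD-G4, 5.30 in CHAD-G6, 3.97 in CHAD-G8, 5.83 in Frog, 3.33 in Journey, 6.05 in Tucker, 3.63 in CHAD-P9, 3.26 in Dal-4, 3.25 in Joey and 4.56 in the F1 dog. It was above background in 4 Golden Retrievers and in no other dog, so it entered the test only through the group where it is high. No size or p-value of its breed difference is given. The same holds for its other probe set, where 2 of the Golden Retrievers and all of the non-Golden Retrievers were at background.

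LRP1, the endocytic receptor that clears tissue factor pathway inhibitor and activator-serpin complexes, had a probe set whose groups did not overlap, and its breed difference was 0.59 log2 units there (SE 0.197, adjusted p = 0.772 by limma). At its probe set of highest mean the groups overlapped, with a difference of 0.63 (SE 0.300). Of the 43 tested probe sets of the 23 genes, 2 separated the groups, against 2.46% of all tested probe sets. They were this one and 1 of SERPINB2, which entered the test only through Golden Retrievers. SERPINI1, which inhibits tissue-type activator, spanned 5.78 in CHAD-G4 to 10.13 in CHAD-P9. PLG itself, the source of plasmin, was at background in every dog, with a highest signal of 4.24.

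**Figure D5:**
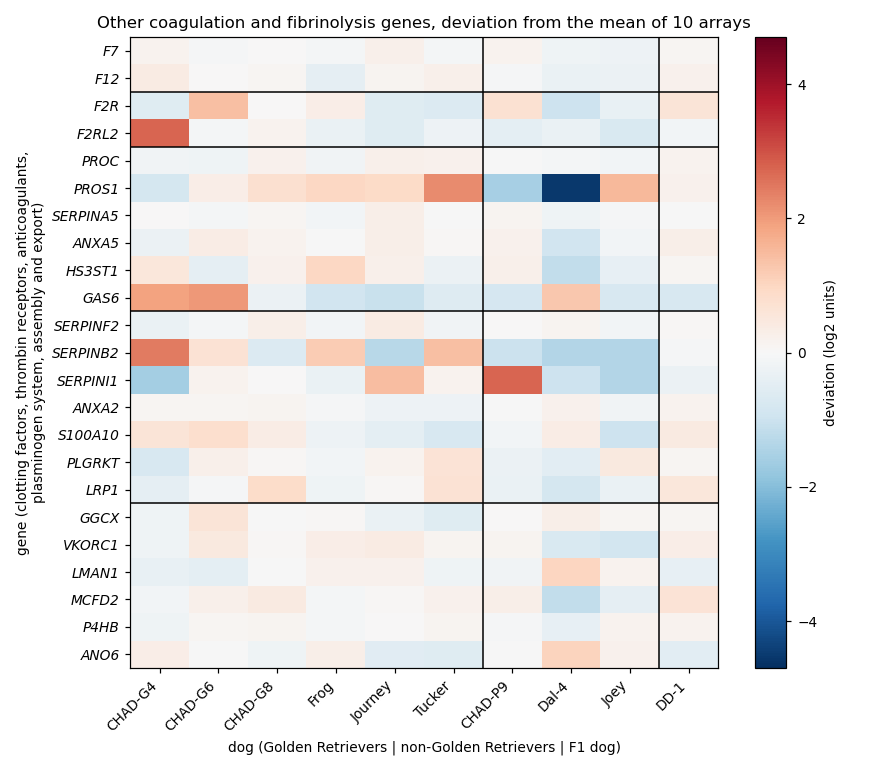
Deviation of each dog (x axis) from the 10-array mean, in log2 units on a blue to red scale, for 23 other tested genes of coagulation and fibrinolysis (y axis, in the order clotting factors, thrombin receptors, anticoagulants, plasminogen system, assembly and export). The deepest cell is PROS1 in Dal-4, F2RL2 is high in CHAD-G4, SERPINI1 is high in CHAD-P9, and most other cells are pale.

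Of the 6 genes of clotting factor assembly and export, 3 were higher and 3 lower, with a median difference of -0.06. VKORC1, the vitamin K reductase that warfarin blocks, had 12.13 in CHAD-G4, 12.78 in CHAD-G6, 12.38 in CHAD-G8, 12.64 in Frog, 12.72 in Journey and 12.43 in Tucker, against 12.43 in CHAD-P9, 11.61 in Dal-4, 11.43 in Joey and 12.62 in the F1 dog. CHAD-P9 lay among the Golden Retrievers and Dal-4 and Joey lay below them. The log2 difference was 0.69 (SE 0.238, adjusted p = 0.772 by limma) and 0.67 (SE 0.238) at the other probe set. MCFD2 and LMAN1, the pair of cargo receptors that carry factors V and VIII out of the endoplasmic reticulum, were lowest (10.46) and highest (12.41) in Dal-4.

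Dal-4 had the lowest signal of the 10 dogs for 8 of these 23 genes (34.8%), against 17% of all tested genes, and for TFPI2 and SERPINE2 among the 7 genes above. At an unadjusted p under 0.05 there were 1 of 6 tested endothelial markers and 1 of 8 tested fibroblast markers, against 6.16% of all genes. ERG, an endothelial transcription factor, was higher in Golden Retrievers by 0.90 log2 units (SE 0.356, adjusted p = 0.772 by limma). DCN, a matrix proteoglycan of fibroblasts, was higher by 0.74 (SE 0.297, adjusted p = 0.772). The lists were mixed, with 4 endothelial markers higher and 2 lower, and 5 fibroblast markers higher and 3 lower, among them PDGFRA (-0.95). The part of these markers in the difference of F3 was not tested.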

How the data were processed

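RNA from each culture was hybridized to an Affymetrix Canine_2 array, and the authors summarized each probe set by RMA (affy, per the labels), which gives deposited log2 signals and draws the arrays to 1 distribution. The version of affy is not given in the sources used here. From these, 111 control probe sets were left out, and 26787 of 42924 probe sets were tested after the filter given above. Golden Retriever minus non-Golden Retriever differences were fitted with limma 3.58.1 (R 4.3.3; lmFit and eBayes, two-sided, Benjamini-Hochberg over all tested probe sets) and checked on simulated data. Python 3.11.15 with SciPy 1.17.1 gave the permutation tests, with 100000 resamples for correlations. Gene names came from the array's annotation, with 29254 probe sets of 1 symbol, 439 of several and 13231 of none. A gene with several tested probe sets was represented by that of highest mean.

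The 9 genes and the lists were chosen with earlier results of these data known, so no list is tested as such. All 9 were named, with genes of the other lists at an unadjusted p under 0.05, without overlap, or among at most 3 of largest range. THBD and PLAUR dropped out of the planned balances and pairs. Alternatives changed the filter, test, scaling, placing of the F1 dog, sex and single dogs. The number of arrays limits the precision.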

Additional observations from a re-analysis of the deposited data

Results flagged for a closer look

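Among 16 sets of values in the Golden Retriever group, 3 had a dog whose gap to the next, as a share of the group's range, exceeded Dixon's critical value of 0.625 for 6 samples. Chance gives about 1 in 20 for a set taken alone. The 16 include several probe sets of the same gene, so they are not separate trials. The probe sets of TFPI2, for instance, had a correlation of 0.983 over the 10 arrays. CHAD-G6 was low for TFPI2, at 10.92 against 12.37 to 12.89 for probe set 1 (share 0.735) and at 8.71 against 11.12 to 12.48 for probe set 2 (share 0.639). CHAD-G4 was high for PROCR, at 9.15 against 7.33 to 7.96 (share 0.655).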

How the results depend on the processing

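The number of tested probe sets at an adjusted p under 0.05 stayed at 0 under every alternative run, and the number of correlated pairs at an adjusted p under 0.05 also stayed at 0. Of 204 values of single probe sets under the alternatives, 203 kept their direction, and PLAU turned to -0.01 without Dal-4 and CHAD-G4 together. Probe sets whose groups did not overlap, 0 with all dogs, numbered 4 among males alone (11.1% of all tested probe sets did not overlap), 1 without Dal-4 and CHAD-G4 together (7.04% of all), and 0 to 4 when each dog was left out (2.84% to 14.1% of all). Probe sets at an unadjusted p under 0.05, 2 with all dogs, numbered 1 to 7 when each dog was left out (3.61% to 11.7% of all). Other pathway genes at an unadjusted p under 0.05, 2 with all dogs, are given beside the share of all tested probe sets in the same setting. They numbered 1 by the methods' t-test (5.65% of all) and 4 with the F1 dog as a Golden Retriever (8.34%). With that dog as a non-Golden Retriever there was 1 (3.43%), among males alone 1 (5.92%), and without Dal-4 and CHAD-G4 together 1 (4.02%). When each dog was left out they ran from 0 without Dal-4 (3.61%) to 6 without CHAD-P9 (11.7%), so the share over the array moved as well. The cause was not tested. The differences between breeds in the balances ran from 1.46 to 2.57 for clotting and from -0.94 to 0.13 for fibrinolysis when each dog was left out. No paired analysis was possible because the labels give no numbers shared between the groups. Leaving PLAUR out of the fibrinolytic balance was not run as an alternative, since no probe set was named for it alone. With 6 dogs against 3, a difference that did not pass is not shown to be absent, and the intervals give the sizes that remain possible.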
